A study of Mus musculus with 474 samples.

Results

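Skeletal muscle libraries with the most and the least Col1a1 messenger RNA were compared across all other genes. Col1a1 encodes the alpha 1 chain of type I collagen. The libraries fell into 10 groups of 45 to 50 by the sex letter and the outbreeding generation in their titles. The members were chosen by measured Col1a1 values: within each group the libraries were ranked by the deposited variance-stabilised value of Col1a1, and the 5 highest and the 5 lowest were taken. This gave 50 collagen-high and 50 collagen-low libraries, 25 of each labelled F and 25 labelled M, together 21.1% of all libraries, and left the others in between. The ranking removed sex and generation from the contrast, since each group gave as many high as low libraries.

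Each library came from 1 Diversity Outbred mouse, an animal of an outbred stock made from 8 inbred founder strains, so every mouse carried its own mixture of founder alleles. All mice, high, low and in between, received a high-fat, high-sugar diet, there was no treatment arm, and the labels give no age. The generations were 17, 18, 19, 21 and 23. The tissue is called skeletal muscle in the labels and gastrocnemius in the study's methods, and each sample is a piece of whole muscle that can carry tendon, fascia, nerve, vessels and fat with it.

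Type I collagen is the main fibre-forming protein of tendon, bone, skin and the connective tissue around muscle fibres. It is made by fibroblasts and tendon cells as a triple helix of alpha 1 and alpha 2 chains. The chains are hydroxylated and folded in the endoplasmic reticulum, trimmed outside the cell at both ends, assembled into fibrils with collagens III, V and XI, and cross-linked by lysyl oxidases. Proteoglycans and glycoproteins then set the width and spacing of the fibrils. In bulk tissue, fewer cells of a type and less RNA per cell cannot be told apart.

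Estimated counts per library summed to 35902400 to 165724000 over the series (median 79308900). The totals were 82972700 ± 17647100 in the collagen-high and 81499300 ± 13763500 in the collagen-low libraries (mean ± SD, n = 50 each), a difference in log2 totals of 0.02 (permutation test within groups, 2-sided, p = 0.743). The muscle gene Myh4 lay between 41078 and 94924 CPM in every library, CPM being counts scaled to the same library total. The scaling factor computed by edgeR was higher in the collagen-high set (median 1.02, range 0.933 to 1.13) than in the collagen-low set (median 0.977, range 0.883 to 1.07). Mitochondrially encoded genes took a median of 9.66% of counts in the high set and 10.4% in the low set. In 5 libraries the sex-linked genes went against the sex letter, and all 5 were in between, so none entered the high or low set.

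Col1a1 (ENSMUSG00000001506, GRCm38 chr11:94936224-94953042, plus strand, protein-coding) chose the libraries and is therefore described without a test. Scaled CPM ran from 46.5 to 152 in the low set (median 114) and from 263.8 to 800.1 in the high set (median 363.1). The sets did not overlap, also when all 10 groups were pooled, which is what the ranking was made to give. On the variance-stabilised log2 scale the mean gap between the sets was 1.44 to 1.89 in the 5 groups labelled M and 1.67 to 2.64 in the 5 groups labelled F, so the contrast was on average wider in the F groups. The border was narrow in some groups: in female generation 18 the lowest high library stood at 14.92 and the highest library left out of the high set at 14.91. In male generation 23 the highest low library stood at 13.23 and the next one up at 13.51. Ranking by log2 CPM in place of the deposited values kept 49 of the 50 high and 49 of the 50 low libraries.

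**Figure D1:**
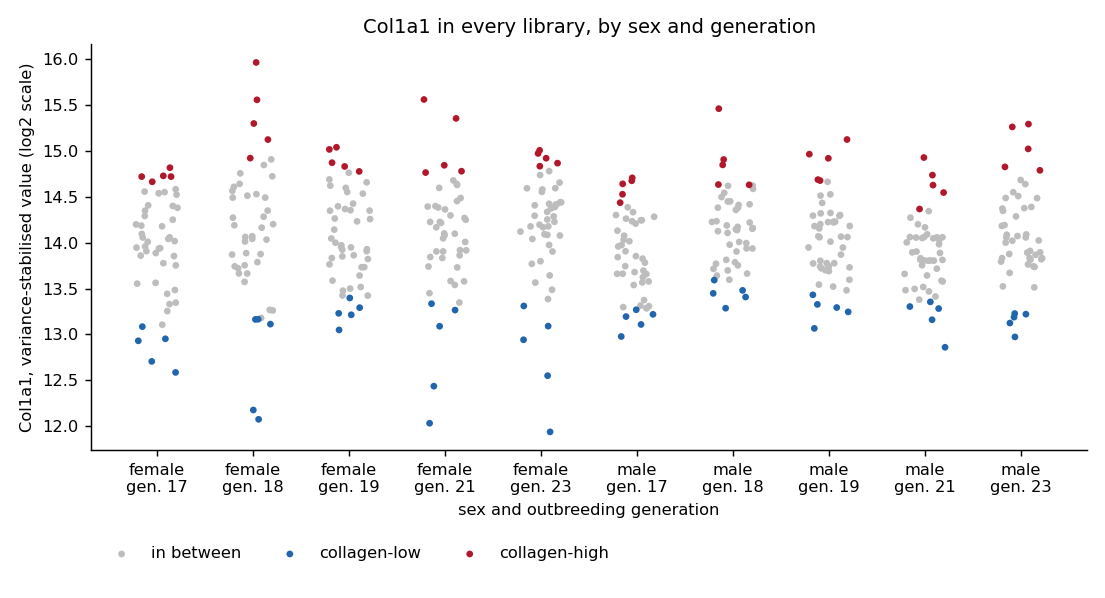
Variance-stabilised Col1a1 (log2 scale, vertical axis) of each library in the 10 sex and generation groups (horizontal axis). Points stand for libraries, red for the 50 collagen-high, blue for the 50 collagen-low and grey for those in between. All red points lie at 14.37 or above and all blue points at 13.59 or below, and the lowest blue points are in groups labelled F.

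Of 18564 genes tested other than Col1a1, 2958 differed between the sets at an adjusted p under 0.05 (edgeR's quasi-likelihood test, Benjamini-Hochberg adjustment, group as covariate), which is 15.9% of the genes tested. Of these, 1326 (7.14%) were higher in the collagen-high libraries and 1632 (8.79%) were lower. Most differences were small, with a median size of 0.19 on the log2 scale among the called genes. At least 1.5-fold differences were fewer and mostly upward: 156 genes (0.84%) rose by that much and 49 (0.264%) fell by that much, together 1.1% of the genes tested. The balance of directions rested on the scaling. Higher genes were 44.8% of the calls with edgeR's scaling and 85.9% with the total count alone, which raised the median log2 difference of all genes from -0.00 to 0.06.

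The other chain of type I collagen followed Col1a1 most closely. Col1a2 (ENSMUSG00000029661, GRCm38 chr6:4504814-4541544) ran from 64.8 to 231.4 CPM in the low set (median 161) and from 323.4 to 807 CPM in the high set (median 421.9). Every high library stood above every low library. The log2 difference was 1.52 ± 0.06 (SE), a 2.87-fold rise (adjusted p = 9.25e-40, edgeR), and it lay between 1.17 and 2.18 in the 10 groups. Gm43921, an annotated gene, overlaps Col1a2, and reads of the overlap could have gone to either.

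Col3a1 (ENSMUSG00000026043, GRCm38 chr1:45311538-45349706), whose type III collagen forms fibrils with type I in soft connective tissue, also rose but with overlap. It ran from 64.6 to 245.3 CPM in the low set (median 144) and from 134 to 457.01 CPM in the high set (median 251.1). Only 28 of the 50 high libraries stood above the highest low library. The log2 difference was 0.95 ± 0.08 (adjusted p = 6.39e-18, edgeR), with 10 of 10 groups higher. Of the collagens that name the sets only Col3a1 was tested, since Col1a1 was higher by the choice of the libraries.

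All 10 fibrillar collagen genes tested other than Col1a1 rose, with a median log2 difference of 0.74, beside -0.00 over all genes tested. Col11a1, a minor chain that nucleates fibrils in cartilage and tendon, ran from 1.00 to 5.75 CPM in the low and 5.0 to 27.1 CPM in the high set, and 47 of 50 high libraries stood above the highest low library (log2 difference 1.36 ± 0.09, adjusted p = 5.47e-24). Its partner Col11a2 rose by 0.82 ± 0.09. The type V chains that start type I fibrils rose less, Col5a1 by 0.67 ± 0.05, Col5a2 by 0.59 ± 0.05 and Col5a3 by 0.48 ± 0.06. Col2a1, the fibril chain of cartilage, rose by 1.56 ± 0.15 at very low levels, with medians of 0.236 CPM in the low and 0.682 CPM in the high set. The smallest rises in the list were those of Col24a1 (0.43 ± 0.15, adjusted p = 0.0403) and Col27a1 (0.20 ± 0.07, adjusted p = 0.0359). Col24a1 was not called with limma (adjusted p = 0.0777), Col27a1 not with the glucocorticoid marker score in the fit (adjusted p = 0.0722), and neither without the 2 low libraries richest in erythroid transcripts (adjusted p = 0.0588 and 0.0527).

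RefSeq promoter sequence (GRCm38.p6) was matched for 8 of these 10 collagens. The bases before the start of Col3a1 and Col11a1 are shown because both genes rose while their promoters differ in the plain motifs searched, which were CCAAT, then GGGCGG, then TATAAA, on either strand. Capitals mark matches. The Col3a1 window is chr1:45311288-45311537 and the Col11a1 window chr3:114030290-114030539, both plus strand, 250 bases that end just before the annotated start.
Col3a1: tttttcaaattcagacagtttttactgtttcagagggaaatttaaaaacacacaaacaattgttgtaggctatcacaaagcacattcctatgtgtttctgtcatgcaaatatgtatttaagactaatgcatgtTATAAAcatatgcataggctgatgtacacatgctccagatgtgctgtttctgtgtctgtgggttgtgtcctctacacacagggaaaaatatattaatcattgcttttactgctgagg
Col11a1: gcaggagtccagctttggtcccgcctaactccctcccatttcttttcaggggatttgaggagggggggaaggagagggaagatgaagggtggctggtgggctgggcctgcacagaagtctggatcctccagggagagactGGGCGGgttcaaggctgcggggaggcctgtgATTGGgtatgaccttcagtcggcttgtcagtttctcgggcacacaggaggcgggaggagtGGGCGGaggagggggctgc
Col3a1 held 1 TATAAA and neither of the others, and Col11a1 held 2 GGGCGG and 1 CCAAT read from the other strand. CCAAT was found in 33.8% of all 32851 promoter windows, GGGCGG in 32.7% and TATAAA in 12.4%, and in 34.4%, 52.8% and 7.19% of the windows of tested genes. In the windows of genes higher in the collagen-high libraries the shares were 34.1% for CCAAT, 60% for GGGCGG and 5.97% for TATAAA, and in those of genes lower there 35.3%, 59.2% and 5.98%. These matches describe letters in the windows and were not tested against the expression differences.

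Of 32 other collagen genes tested, 18 rose and none fell (median log2 difference 0.36). Type VI collagen forms beaded filaments around muscle fibres, and 4 of its 6 chains passed the test. Col6a1 ran from 24.6 to 84.3 CPM in the low and 74.6 to 129 CPM in the high set, and 40 of 50 high libraries stood above all low ones (log2 difference 0.71 ± 0.05, adjusted p = 1.19e-21). Col6a2 rose by 0.70 ± 0.06, Col6a3 by 0.58 ± 0.06 and Col6a6 by 0.42 ± 0.09. Col6a4 (0.25 ± 0.44, adjusted p = 0.775) and Col6a5 (0.67 ± 0.32, adjusted p = 0.144) did not pass. Col12a1, which coats type I fibrils in tendon and fascia, went from a median of 13.7 to 23.8 CPM, with 43 of 50 high libraries above the low range (0.82 ± 0.06). The basement membrane chains Col4a1 (0.38 ± 0.05) and Col4a2 (0.38 ± 0.04) rose less, and Col15a1 (0.60 ± 0.06), Col16a1 (0.65 ± 0.05) and Col18a1 (0.50 ± 0.06) lay in between.

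The genes that fold and modify procollagen split. Of 24 tested, 12 rose, 1 fell and 11 did not pass (median 0.17). The largest differences that passed were those of Kdelr3, a receptor that returns proteins to the endoplasmic reticulum (0.76 ± 0.08), Rcn3 (0.64 ± 0.06), the peptidyl-prolyl isomerase Fkbp10 (0.62 ± 0.06), Creb3l1, a transcription factor that drives collagen secretion genes (0.61 ± 0.06), and P3h3 (0.51 ± 0.05), each with an adjusted p of 6.93e-12 or smaller. Serpinh1, the collagen-specific chaperone, ran from 22.5 to 94.5 CPM in the low and 30.9 to 107 CPM in the high set, largely overlapping (0.34 ± 0.08, adjusted p = 0.000527). The subunits of prolyl 4-hydroxylase, which stabilises the helix, did not pass the test. P4ha1 had 48.8 CPM in the low and 50.6 in the high set (0.02 ± 0.06, adjusted p = 0.854), P4ha2 differed by 0.01 ± 0.04 (adjusted p = 0.946) and P4hb by -0.01 ± 0.02 (adjusted p = 0.833). P4ha3, at 0 in some libraries and under 1 CPM in every library of both sets, differed by 0.51 ± 0.28 (adjusted p = 0.217). Tmem38b, a cation channel of the endoplasmic reticulum, fell by 0.19 ± 0.05 (adjusted p = 0.00174), in 7 of 10 groups. None of 15 general endoplasmic reticulum chaperones passed the test with edgeR (5 at an unadjusted p under 0.05, 1 called by DESeq2 and 0 by limma), though 8 did with the total count alone. Hspa5, the main one, had medians of 206 and 216 CPM.

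Of 14 trimming and cross-linking genes 9 rose and none fell (median 0.44). Loxl2, a lysyl oxidase, went from a median of 13.5 to 21.4 CPM, with 31 of 50 high libraries above the low range (0.65 ± 0.05, adjusted p = 3.92e-19). Pcolce, which helps remove the carboxyl end of procollagen, rose by 0.56 ± 0.05. The proteases Adamts2 and Bmp1, which cut the amino and the carboxyl ends, rose by 0.54 ± 0.04 and 0.38 ± 0.03. Lox itself overlapped widely, from 8.02 to 56.6 CPM in the low and 9.78 to 34.1 CPM in the high set (0.11 ± 0.09, adjusted p = 0.514), although its slope on Col1a1 in the libraries in between was positive (0.28 ± 0.06 log2 per unit of Col1a1, adjusted p = 0.000295).

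Among proteoglycans and glycoproteins that bind fibrils, 18 of 23 rose and none fell (median 0.31). Sparc, a collagen-binding glycoprotein that takes part in procollagen handling, ran from 114 to 236.1 CPM in the low and 241.7 to 438.4 CPM in the high set. As for Col1a2, every high library stood above every low one (log2 difference 0.92 ± 0.04, adjusted p = 9.28e-35). Fmod, a proteoglycan of tendon fibrils, went from a median of 127 to 219.4 CPM (0.77 ± 0.06), Kera from 6.31 to 13.6 CPM (1.14 ± 0.12) and Tnc, a glycoprotein of the muscle-tendon junction, from 7.48 to 13.1 CPM (0.87 ± 0.08). Fn1 (0.55 ± 0.07), Bgn (0.55 ± 0.06) and Postn (0.66 ± 0.12) rose too. Dcn, another proteoglycan of this list, rose by only 0.13 ± 0.04 (adjusted p = 0.0118) and Ogn differed by 0.02 ± 0.07 (adjusted p = 0.877).

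Of 15 elastic fibre genes, 13 rose (median 0.38), including Mfap4 (1.09 ± 0.10), Fbn1 (0.52 ± 0.05) and Eln (0.49 ± 0.06). Of 11 basement membrane genes, 7 rose (median 0.18), with Nid2 (0.55 ± 0.06) and Hspg2 (0.36 ± 0.04) the largest. Genes of collagen breakdown rose as well, 9 of 17 tested (median 0.18). Ctsk, a collagen-digesting cathepsin, went from a median of 3.08 to 5.59 CPM (0.83 ± 0.08), Mmp2 from 39.3 to 56.0 CPM (0.46 ± 0.04), and the inhibitors Timp1 and Timp2 rose by 0.92 ± 0.19 and 0.30 ± 0.03. Of 9 collagen receptors, 4 rose (median 0.14), among them the integrins Itga2 (0.56 ± 0.11), Itga10 (0.38 ± 0.08) and Itga11 (0.26 ± 0.06). No gene of these lists fell.

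**Figure D2:**
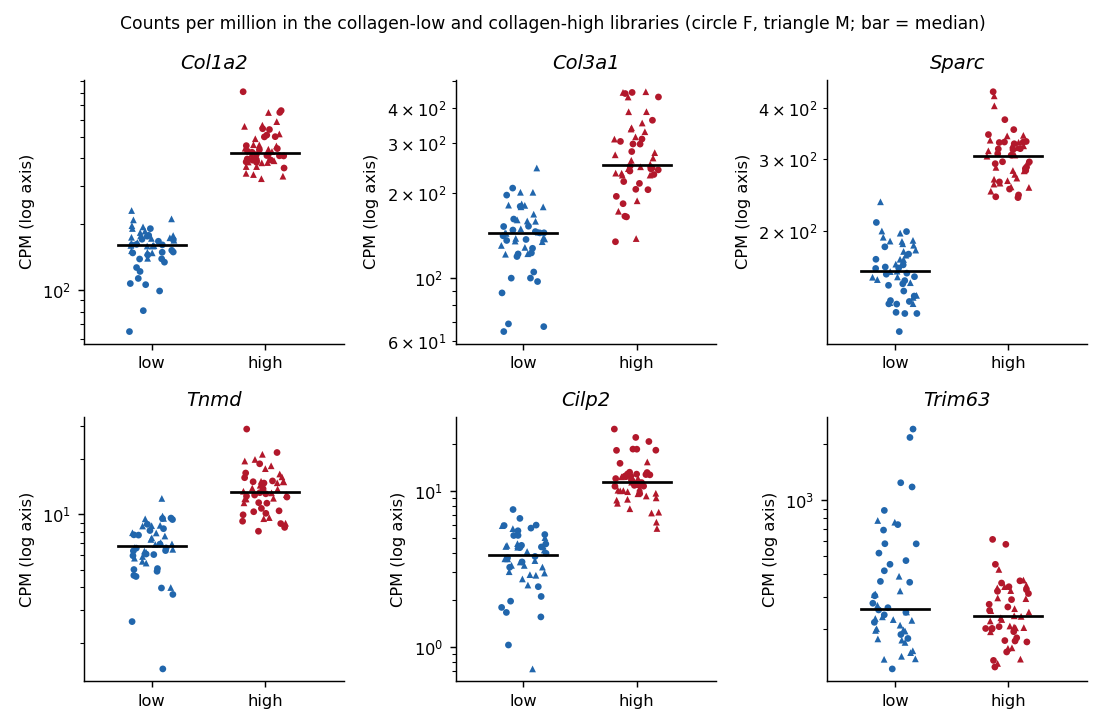
Scaled CPM (log axis) of 6 genes in the 50 collagen-low (blue) and 50 collagen-high (red) libraries, with circles for libraries labelled F, triangles for M and a bar at the median. Col1a2 and Sparc do not overlap between the sets, Col3a1, Tnmd and Cilp2 overlap in part, and for Trim63 the medians are 258.1 and 235.7 CPM while single low libraries reach 2422 CPM.

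In the transforming growth factor beta pathway, the best known inducer of collagen genes, 4 of 19 genes rose and 2 fell (median 0.06), beside 7.14% higher and 8.79% lower of all genes tested. The falls in this list, the insulin-like growth factor axis and the imprinted genes are near that share. The ligand Tgfb1 went from a median of 4.92 to 5.81 CPM (0.24 ± 0.05, adjusted p = 0.000524) and the target Ccn2 from 32.0 to 41.6 CPM (0.32 ± 0.08, adjusted p = 0.00373), while the receptor Tgfbr1 fell by 0.23 ± 0.05 and Smad4 by 0.15 ± 0.03. With the total count alone 8 rose and 2 fell. Of 7 platelet-derived growth factor genes 2 rose (median 0.08), with Pdgfrl at 0.72 ± 0.07. In the insulin-like growth factor axis 4 of 11 rose and 1 fell (median 0.15). Igfbp7 rose by 0.38 ± 0.04 and Igf1r fell by 0.20 ± 0.05, and Igf1, with medians of 16.8 and 19.4 CPM, did not pass (adjusted p = 0.364). Of 15 imprinted growth genes 4 rose, among them Meg3 (0.34 ± 0.07), and 1 fell (median 0.01). With the total count alone 0 genes of the insulin-like growth factor axis and 0 of the imprinted list were called lower, and Igf1r was at -0.14 (adjusted p = 0.0637).

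Tendon cell markers moved with the sets. Of 10 tested, 9 rose and none fell, with a median of 0.82, and Fmod, Kera and Tnc belong to this list as well as to the fibril-associated one. Cilp2, a cartilage and tendon matrix protein, had the largest rise that the naming rule found, from 0.725 to 7.57 CPM in the low and 5.73 to 24.8 CPM in the high set (1.60 ± 0.10, adjusted p = 1.08e-25). Tnmd, a membrane protein that defines tendon cells, ran from 1.44 to 12.2 CPM in the low and 8.07 to 28.9 CPM in the high set, with 33 of 50 high libraries above the low range (1.02 ± 0.09, adjusted p = 3.63e-17). Chad (1.06 ± 0.09), Comp (0.67 ± 0.08), Thbs4 (0.61 ± 0.06) and the transcription factor Mkx (0.65 ± 0.07) rose too. Scx, the early tendon transcription factor, did not pass (0.25 ± 0.11, adjusted p = 0.115). Summed over the 10 markers, tendon transcripts took 109.6 to 378.4 CPM in the low and 317.7 to 804.3 CPM in the high set, and 43 of 50 high libraries lay above the low range. None of the markers was at 0 in all libraries of a set.

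Fibroblast and fibro-adipogenic progenitor markers rose less, 9 of 12 with a median of 0.24. Their sums overlapped, from 768 to 1351 CPM in the low and 767 to 1546 CPM in the high set, with 10 of 50 high libraries above the low range. Cd34 rose by 0.28 ± 0.03 and Pi16 by 0.24 ± 0.08. The receptor Pdgfra, which defines these cells, had medians of 34.6 and 37.0 CPM (0.08 ± 0.04, adjusted p = 0.142), and Tcf7l2 differed by 0.01 ± 0.04 (adjusted p = 0.86).

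Because the tendon markers moved with the sets, the comparison was repeated with each library's mean tendon marker score in the fit. Over all libraries, centred within groups, the markers followed Col1a1 with Pearson r from 0.2046 (Scx) to 0.8192 (Cilp2). The score thus partly stands in for the ranking gene, and the fit cannot tell tendon content from Col1a1 itself. This left 78 of 18554 genes called (0.42%), 62 higher (0.334%) and 16 lower, and 60 of them had been called without the score. Col1a2 kept a difference of 1.00 ± 0.09 (adjusted p = 1.29e-15), Sparc of 0.90 ± 0.08, Col3a1 of 0.94 ± 0.14 and Col5a1 of 0.56 ± 0.09, all still called. Col11a1, at 0.47 ± 0.12, no longer passed (adjusted p = 0.0557), nor did Mfap4 (0.45 ± 0.17, adjusted p = 0.193) or Col12a1 (0.35, adjusted p = 0.0622). The standard errors grew with the score in the fit, for Col3a1 from 0.08 to 0.14. The median of the fibrillar collagens was 0.43 in place of 0.74 and 4 of 10 stayed called. Of the other matrix lists 4 of 32 other collagens, 4 of 14 trimming and cross-linking genes, 3 of 20 proteoglycans and glycoproteins, 3 of 15 elastic fibre genes, 3 of 17 breakdown genes and 1 of 11 basement membrane genes were higher, and 0 of 24 folding genes and 0 of 9 collagen receptors. In that order the list medians without the score were 0.36, 0.44, 0.31, 0.38, 0.18, 0.18, 0.17 and 0.14. With the score they were 0.25, 0.30, 0.20, 0.25, 0.21, 0.23, 0.15 and 0.09, so calls were also lost in lists whose median did not fall. With the fibroblast marker score in the fit, 1428 of 18552 genes were called (7.7%, with 3.55% higher), the fibrillar median was 0.50 and 8 of 10 stayed called, while the tendon markers had a median of 0.85 with 10 of 10 called. Fewer genes were called in other matrix lists, with 7 of 21 proteoglycans and glycoproteins, 7 of 24 folding genes and 1 of 9 collagen receptors higher. The part of the tendon markers in these differences beyond these fits was not tested.

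**Figure D3:**
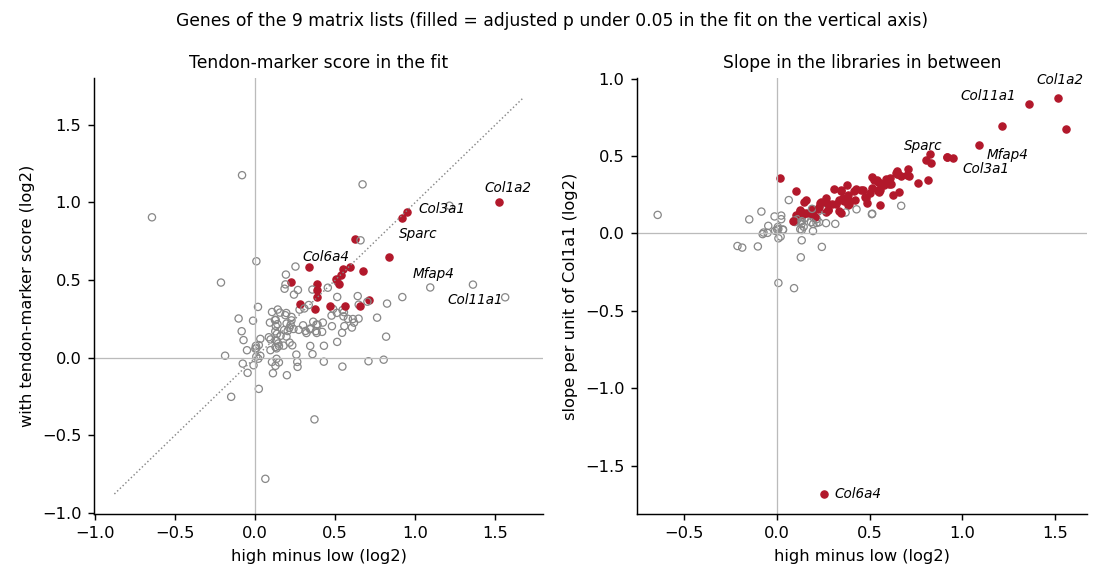
Log2 differences between collagen-high and collagen-low libraries (horizontal axes) for 152 genes of the 9 matrix lists, against the difference with the tendon marker score in the fit (left, dotted line of equality) and against the slope on Col1a1 in the libraries in between (right, log2 per unit of Col1a1). Filled points had an adjusted p under 0.05 in the fit of the vertical axis. Col3a1 and Sparc stay on the line at left while Col11a1 and Mfap4 drop to 0.47 and 0.45, and at right Col11a1 has a slope of 0.84, Col3a1 of 0.49, Lox of 0.28 and Col6a4 of -1.68.

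The same relation was asked of the libraries in neither set, as the slope of each gene on Col1a1 after centring within groups. Of 18800 genes 4.78% had a called slope, 2.36% rising with Col1a1 and 2.42% falling. Col1a2 had a slope of 0.87 ± 0.02 log2 per unit of Col1a1 (adjusted p = 5.01e-165), Cilp2 of 0.92 ± 0.05, Col11a1 of 0.84 ± 0.05, Tnmd of 0.59 ± 0.05, Col3a1 of 0.49 ± 0.04 and Sparc of 0.49 ± 0.02. Of the genes higher in the collagen-high set 27.0% also rose here, and they made up 80.6% of the genes that rose. Of the downward genes 81 were in both lists, 4.96% of the genes lower between the sets and 17.8% of those with a negative slope. In 11 libraries in between, 10 of them labelled F, lymphocyte markers other than Ighm summed to 103 to 395.2 CPM against a series median of 3.67 CPM. Without those 11 libraries 2.95% of genes rose and 1.53% fell, and 70.1% of the latter were also lower in the collagen-high set. The slope of Col6a4, listed at 0 CPM in some libraries of both sets, went from -1.68 to 0.35 (adjusted p = 0.679) without them.

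**Figure D4:**
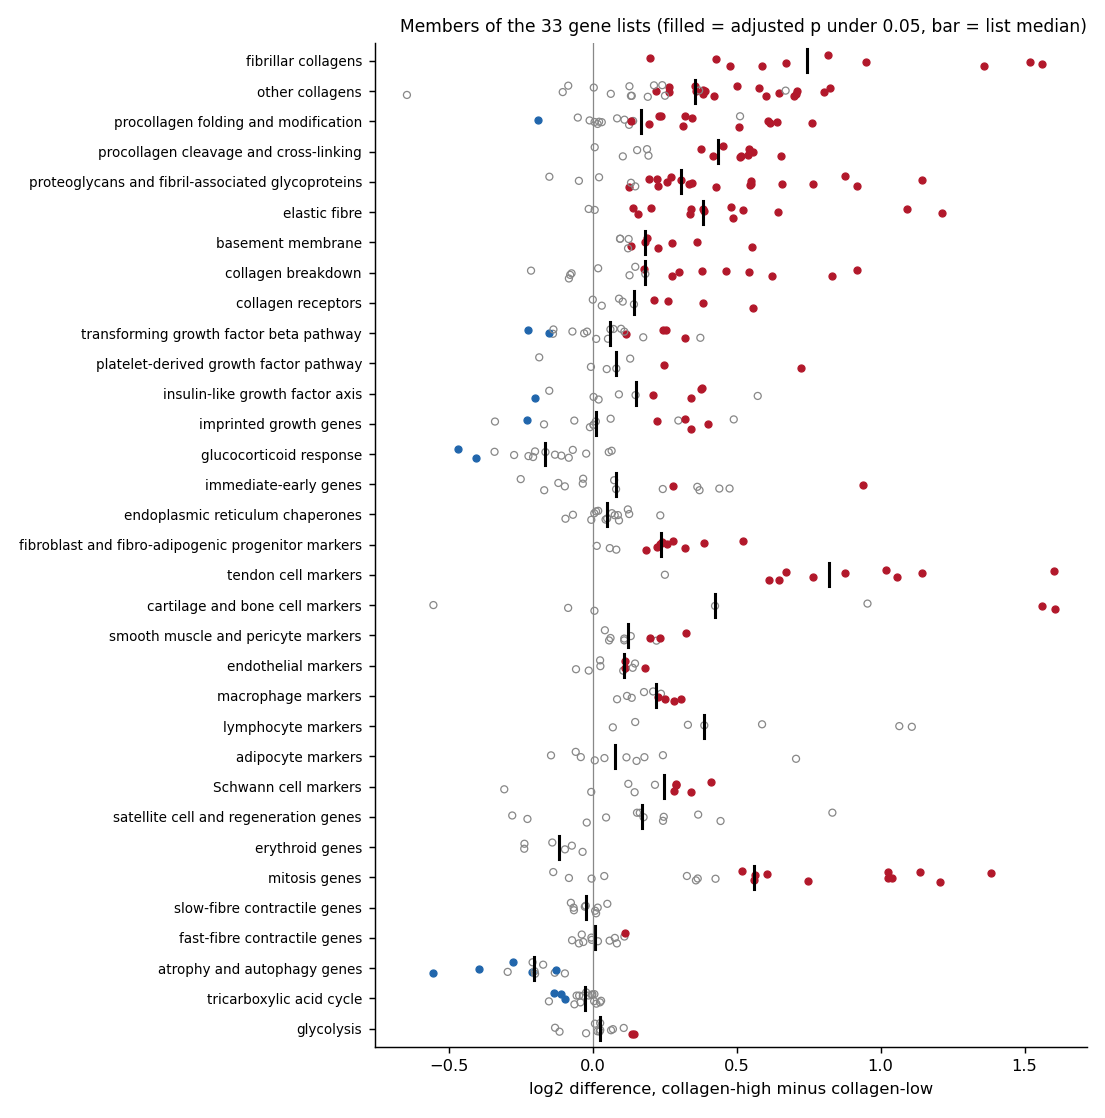
Log2 difference between collagen-high and collagen-low libraries (horizontal axis) of every tested member of 33 gene lists (vertical axis), filled red for higher and blue for lower at an adjusted p under 0.05, open otherwise, with a bar at the median of each list. The 10 fibrillar collagens are all filled and right of 0, the tendon markers have a median of 0.82, and the contractile, erythroid and adipocyte lists lie around 0.

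Cartilage and bone markers gave 2 of 7 genes higher (median 0.43), Col2a1 and Matn3, and both lay under 2 CPM in every library of the sets. Macrophage markers gave 4 of 10 higher (median 0.22), with Cd68 at 0.31 ± 0.09, and summed to 56.2 to 172 CPM in the low and 44.8 to 198 CPM in the high set. Schwann cell markers gave 5 of 10 higher (median 0.25). DESeq2 called 4 macrophage and 5 Schwann cell markers, and limma 4 and 2. In libraries labelled F alone 0 of either list were higher. In those labelled M alone 4 macrophage and 1 Schwann cell markers were, beside 3% of all genes tested. With the fibroblast score in the fit 0 macrophage markers were called, and 2 Schwann cell markers were higher and 1 lower, and with the tendon score 0 of either list. None of the macrophage or Schwann cell markers had a called slope in the libraries in between. Without the 11 lymphocyte-rich libraries 5 of 10 macrophage markers rose with Col1a1 there, and 0 Schwann cell markers had a called slope. Of 8 lymphocyte markers 7 had a called negative slope in between, and 0 without those libraries. Smooth muscle and pericyte markers gave 3 of 10 higher (median 0.12) and endothelial markers 3 of 10 (median 0.11), beside 7.14% higher of all genes tested, with Pecam1 at 0.03 ± 0.04 (adjusted p = 0.753). No lymphocyte (7 tested), adipocyte (10), satellite cell (12) or erythroid gene (6) passed the test with edgeR. At an unadjusted p under 0.05 there were 3 lymphocyte, 1 adipocyte, 6 satellite cell and 0 erythroid genes, DESeq2 called 0, 0, 1 and 0 of them and limma 0, 0, 0 and 0. With the total count alone 1 lymphocyte and 4 satellite cell genes were higher, and 0 adipocyte or erythroid genes. Adipoq, the adipocyte hormone, ran from 2.80 to 70.2 CPM in the low and 5.16 to 57.7 CPM in the high set. Erythroid genes summed to 51.0 to 434.6 CPM in the high set and reached 2785 CPM in the low set. Without the 2 low libraries richest in erythroid transcripts 1419 genes were higher and 1741 lower.

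Of 19 mitosis genes tested, 11 rose (median 0.56), beside 7.14% of all genes tested. With the fibroblast score in the fit 1 was called (median 0.21), beside 3.55% of all genes higher. With the tendon score 2 were called, beside 0.334% of all genes higher, and the median was 0.87. Mki67, a marker of dividing cells, had medians of 0.396 CPM in the low and 1.01 CPM in the high set and ranged up to 4.0 and 9.52 CPM (1.14 ± 0.22, adjusted p = 8.98e-05). Top2a rose by 1.03 ± 0.24 (adjusted p = 0.000972). Summed over the 20 genes the sets overlapped almost wholly, from 9.99 to 52.8 CPM in the low and 12.6 to 38.4 CPM in the high set. In the libraries in between no mitosis gene had a called slope, and Mki67 stood at -0.26 ± 0.20 (adjusted p = 0.56). Without the 11 lymphocyte-rich libraries 4 of the list rose there, beside 2.95% of all genes tested.

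Of 9 slow-fibre contractile genes none passed edgeR's test (median -0.02, 0 at an unadjusted p under 0.05, 0 called by DESeq2 and 0 by limma), and of 12 fast-fibre genes 1 did, the light chain Myl1 (0.11 ± 0.04, adjusted p = 0.0371), while DESeq2 called 2 and limma 1. Myh7, the slow myosin, differed by 0.01 ± 0.11 and Myh4, the fastest, by -0.03 ± 0.04. Of 18 tricarboxylic acid cycle genes 3 fell, by at most 0.13, and of 13 glycolysis genes 2 rose, by at most 0.15, beside the same 8.79% lower and 7.14% higher of all genes. With the total count alone 0 tricarboxylic acid cycle genes were called, and 5 glycolysis and 4 fast-fibre genes were higher.

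Of 12 atrophy and autophagy genes 5 fell and none rose (median -0.20), beside 8.79% lower of all genes tested. DESeq2 called 7 of them and limma 3. In libraries labelled F alone 8 were lower and in those labelled M alone 0, beside 5.18% and 2.07% of all genes. Trim63, a ubiquitin ligase of muscle wasting, ran from 122 to 2422 CPM in the low and 125 to 612.8 CPM in the high set (fell by 0.55 on the log2 scale, SE 0.16, adjusted p = 0.0114). The medians were close, at 258.1 and 235.7 CPM, and 9 low libraries lay above every high library. Fbxo32, its partner ligase, had 5 low libraries above the high range (-0.39 ± 0.13, adjusted p = 0.0273), and Bnip3, a mitophagy receptor, 7 (-0.28 ± 0.06, adjusted p = 0.000523). Of 15 glucocorticoid response genes 2 fell, Fkbp5 (-0.47 ± 0.13, adjusted p = 0.00605) and Sesn1 (-0.40 ± 0.14, adjusted p = 0.0352), a count close to the 8.79% of all genes tested that were lower. DESeq2 called 2 of this list and limma 1, and 3 were lower in F alone and 0 in M alone. With the total count alone Trim63 and Bnip3 stayed called among the 5, Fbxo32 did not (adjusted p = 0.0604), and of the glucocorticoid genes Fkbp5 stayed called. In libraries labelled F Trim63 differed by -1.15 and Fbxo32 by -0.82, while in libraries labelled M they differed by 0.03 and 0.02 (adjusted p = 0.936 and 0.952). The difference between the sexes was not called for either gene (adjusted p = 0.19 for Trim63 and 0.252 for Fbxo32, edgeR interaction). With the tendon score in the fit both turned upward, to 0.57 and 0.59, neither called, and with the glucocorticoid score neither was called (-0.24 and -0.22). In the libraries in between neither had a called slope. Of 15 immediate-early genes 2 rose, Fosb (0.94 ± 0.28, adjusted p = 0.0123) and Dusp1 (0.28 ± 0.10, adjusted p = 0.0331), beside 7.14% of all genes tested. DESeq2 called 3 of this list and limma 2. Without the 2 low libraries richest in erythroid transcripts 1 was higher, and each sex alone gave 0.

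The 12 largest rises by the naming rule were those of Cilp2, Col1a2, Col11a1, Ecrg4 (1.33 ± 0.12), Kera, Mfap4, C1qtnf6 (1.09 ± 0.08), the Wnt inhibitor Wif1 (1.07 ± 0.11), Chad, Ccn4 (1.03 ± 0.11), Tnmd and Clec11a, a secreted growth factor of bone (0.97 ± 0.11). All 12 were higher in 10 of 10 groups. Clec11a was at -0.00 with the tendon score in the fit, a score that does not include it. In the annotation Ecrg4 overlaps Gm29155, Mfap4 overlaps Mapk7 and Chad overlaps Acsf2. Over all libraries, centred within groups, the genes most like Col1a1 were Col1a2 (Pearson r = 0.9705), Sparc (0.8351), Cilp2 (0.8192), Col11a1 (0.8033), Col6a1 (0.767), Col6a2 (0.7638), Col5a1 (0.7302), C1qtnf6 (0.7209), Ssc5d (0.7072) and Pcolce (0.7023). These values describe libraries that share preparation and depth and carry no test. Col3a1 stood just below them at 0.6997.

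The 12 largest falls by the naming rule, mostly in genes of poorly known function and lower in 9 or 10 of 10 groups, were those of Gm42417 (-1.33 ± 0.27), Gm14440 (-0.77 ± 0.26), B230354K17Rik (-0.65 ± 0.19), B230303O12Rik (-0.62 ± 0.17), 4930551O13Rik (-0.60 ± 0.16), Arrdc3 (-0.55 ± 0.16), Dach2 (-0.54 ± 0.19), Gm44220 (-0.53 ± 0.09), Gm6710 (-0.53 ± 0.17), Gm16185 (-0.51 ± 0.11), Zfp758 (-0.50 ± 0.10) and mt-Atp8 (-0.48 ± 0.14). None of the 12 had a called slope in the libraries in between. Gm42417 overlaps Ankrd23 and Ankrd39, B230354K17Rik overlaps Cdc5l and Spats1, 4930551O13Rik overlaps Optn, Gm16185 overlaps Slc25a36, Gm44220 overlaps 9530026P05Rik, Arrdc3 overlaps 1700023H06Rik and mt-Atp8 overlaps mt-Atp6, so their counts are uncertain.

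The 2 collagen markers named different libraries. Ranking by Col3a1 in place of Col1a1 kept 16 of the 50 high and 28 of the 50 low libraries, and 2 of the collagen-high libraries were among the lowest by Col3a1. The comparisons share libraries, so their values are set side by side only. The Col3a1 ranking gave 13.9% of 18579 genes called, with 8.84% higher and 5.04% lower. Tendon markers were 5 of 10 higher there against 9 of 10 by Col1a1, fibroblast markers 10 of 12 against 9 of 12, macrophage markers 10 of 10 against 4 of 10, adipocyte markers 9 of 10 against 0 of 10 and lymphocyte markers 7 of 8 against 0 of 7. Fibrillar collagens were 7 of 9 higher by Col3a1, with Col1a2 at 1.04 and Col11a1 at 0.78, and Col5a1 and Col5a2 at 0.79 and 0.80.

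The difference between the sexes was tested directly. The interaction of sex with collagen set called 2 genes of 18564 (0.0108%), with 1471 at an unadjusted p under 0.05. Mfap4 rose by 1.53 in libraries labelled F and 0.65 in those labelled M, a difference of -0.89 ± 0.18 (M minus F, adjusted p = 0.0217). With the interaction taken as a slope on Col1a1 in the same libraries, which allows for the wider gap in F, 16 genes were called in place of 2 (14 higher and 2 lower in M minus F), and Mfap4 was no longer called (-0.33 ± 0.09 log2 per unit of Col1a1, adjusted p = 0.0979). Its medians were 3.14 and 9.07 CPM in low and high F libraries and 3.86 and 5.81 CPM in low and high M libraries. Galnt15, which encodes a glycosyltransferase, fell by 1.09 in F and differed by 0.05 in M (difference 1.14 ± 0.20, adjusted p = 0.00501), and as a slope it stayed called (0.57 ± 0.09, adjusted p = 0.00058). Its low F libraries ran from 11.1 to 119.8 CPM, and those of the other 3 sets stayed under 38 CPM. In fits of each sex alone, 8.49% of genes were called in F and 5.08% in M, and 8 of 10 fibrillar collagens rose in each, with Col1a2 at 1.72 and 1.31. The gap in Col1a1 itself was wider in F.

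Library numbers in the titles fell into 5 runs of up to 96 numbers, holding 8 to 12 high and 6 to 12 low libraries each. With the run as a covariate 1205 genes were higher and 1355 lower. Col1a2 differed by 1.24 to 1.68 within the 5 runs fitted alone, Sparc by 0.65 to 1.15, Col3a1 by 0.49 to 1.52 and Tnmd by 0.86 to 1.33.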

How the data were processed

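RNA from 474 muscles was made into polyA libraries and sequenced as 100-base read pairs. The authors aligned the joined mates as single reads to the transcriptomes of the 8 founder strains with EMASE through GBRS (build GRCm38), removed genes with under 1 read in at least 50% of the samples, and deposited estimated counts for 20612 genes (68.6% of values whole numbers) and a matrix of variance-stabilised scores, made with DESeq2 and close to the log2 scale. The study's methods do not say whether strand was used, so overlapping and antisense genes may not be told apart.

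Estimated counts were rounded and fitted with edgeR 4.0.16 (TMM scaling, genes kept by a count minimum of 10, quasi-likelihood test, Benjamini-Hochberg over all genes but Col1a1) in R 4.3.3, with sex and generation group as covariate. CPM are scaled by TMM. The slope in the libraries in between used the same test on group-centred Col1a1. Marker scores were mean scaled log2 CPM. Alternatives used DESeq2 1.42.0 and limma 3.58.1. The scripts were tested on simulated data. The tests across libraries measure the spread between animals, and the depth, 35902400 counts or more per library, limits mainly genes under 1 CPM. Named genes were the 12 largest called rises and falls with a mean of at least 1 CPM and the same sign in at least 9 groups, members of 33 gene lists, and further genes picked with their values known. The collagen sets, the members and the lists were chosen with earlier results of these data known. Col1a1 chose the libraries and was not tested. The values of 1 list member are not reported here.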

Additional observations from a re-analysis of the deposited data

Results flagged for a closer look

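The difference between collagen-high and collagen-low libraries itself differed by sex for 2 genes, tested as an interaction with edgeR. For Galnt15 it was 1.14 ± 0.20 higher in libraries labelled M than in those labelled F (log2, SE, adjusted p = 0.00501), with -1.09 in F and 0.05 in M. The low F libraries reached 119.8 CPM (median 23.7), and the low M libraries 37.5 CPM (median 16.1). For Mfap4, an elastic fibre protein whose gene overlaps Mapk7 in the annotation, it was -0.89 ± 0.18 (adjusted p = 0.0217), with 1.53 in F and 0.65 in M. The Col1a1 gap that chose the libraries was also wider in most F groups. With the interaction taken as a slope on Col1a1, an alternative chosen after seeing the data, Galnt15 stayed called (0.57 ± 0.09 log2 per unit of Col1a1, adjusted p = 0.00058) and Mfap4 did not (-0.33 ± 0.09, adjusted p = 0.0979).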

How the results depend on the processing

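The comparison was repeated under 23 alternatives for 115 named genes, 99 of them called. The number of called genes stayed within 1.5 times of 2958 with DESeq2, limma, other filters, DESeq2 size factors, the run of library numbers or the glucocorticoid score as a covariate, 10 libraries per end, ranking by log2 CPM, and without the 2 erythroid-rich libraries. The glucocorticoid score, the interaction as a slope on Col1a1 and the fits without erythroid-rich, lymphocyte-rich or sex-discordant libraries were chosen after seeing the data. As shares of the genes tested, the total count alone gave 15.6% higher and 2.56% lower. The tendon score left 0.42% called (0.334% higher, 0.0862% lower), the fibroblast score 7.7% (3.55% and 4.15%), 3 libraries per end 6.33% (3.78% and 2.55%), libraries labelled F 8.49% (3.31% and 5.18%) and libraries labelled M 5.08% (3.0% and 2.07%). Ranking by Col3a1 gave 5.04% lower. Within the 5 runs of library numbers, with 17 to 23 high and low libraries each, 1 gene was called in the first (0.00516% higher, 0 lower), 1 in the next (0.00508% higher, 0 lower), 20 in the third (0.102%, with 0.087% higher and 0.0154% lower), 5 in the fourth (0.0257% higher, 0 lower) and 18 in the fifth (0.0923%, with 0.0821% higher and 0.0103% lower). The slope gave 2.62% with limma, 0.553% lower, and 1.53% lower without the lymphocyte-rich libraries. The interaction with sex gave 0.0108% lower with limma and, as a slope on Col1a1, 0.0862% (0.0754% higher, 0.0108% lower).

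Several called genes changed sign (log2 differences). With the tendon score these were Clec11a -0.0018, Dcn -0.053, Matn3 -0.25, Itga11 -0.028, Col27a1 -0.11, Galnt15 0.40, Fbxo32 0.59, Fkbp5 0.30, Tmem38b 0.012, Trim63 0.57, Sesn1 0.65 and Bnip3 0.065. Ranked by Col3a1 they were Gm42417 0.14, Gm6710 0.087, Gm16185 0.035, mt-Atp8 0.055, Ccn2 -0.10, Dusp1 -0.0047 and Itga10 -0.048. In libraries labelled M they were Galnt15 0.051, Fbxo32 0.022, Trim63 0.032 and Sesn1 0.025. In the first run they were 4930551O13Rik 0.018, Fosb -0.37, Ccn2 -0.13, Top2a -0.061, Fbxo32 0.11, Dusp1 -0.28 and Fkbp5 0.25. In the next run they were Gm42417 0.0012, Gm14440 0.69, mt-Atp8 0.087, Igf1r 0.016, Fbxo32 0.11, Trim63 0.097, Itga11 -0.022, Col27a1 -0.11 and Myl1 -0.20. In the third they were Gm14440 0.39, Zfp758 0.033, Cd68 -0.040 and Itga11 -0.027, and in the fourth Gm42417 0.082, Gm6710 0.25, mt-Atp8 0.14, Igf1r 0.0097 and Pi16 -0.10. The single runs hold fewer samples, and for the other settings the cause was not tested. No paired analysis was possible because each library came from a different mouse. Depth limits genes under 1 CPM, such as Col2a1.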
